A study of Sus scrofa with 22 samples.

Results

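SERPING1, C4BPB, CD55, CFD, A2M and SERPINB2 encode proteins that control complement or block proteases, and their transcripts were followed in blood mononuclear cells of mini pigs. Every probe set (a group of short probes read as 1 value) of the porcine Affymetrix array whose annotation gave exactly 1 of these 6 symbols was used. That rule gave 6 of the 6765 genes named by such a probe set, and 12 of the 23999 probe sets left after the array's own controls were set aside. CD55 had 5 of them and A2M 3, numbered here from the brightest, and each of the other genes had 1. All 12 passed the filter on dim probe sets (log2 above 5 in at least 2 arrays), CD55 probe set 5 only through time 0 arrays. All values below are log2 of the deposited RMA intensities (background-corrected, quantile-normalized and summarized array signals), so a difference of 1 is a doubling. Levels were not compared between probe sets, since each has its own binding strength.

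The arrays measured peripheral blood mononuclear cells (PBMNCs), the lymphocytes and monocytes of blood, from female and male mini pigs. At 9 months 2 females and 2 males were measured on each of 3 diets, which were a high-fat chow of 20% beef tallow with resveratrol at 8 mg per kg of body weight per day, the high-fat chow alone, and a control chow of 5% beef tallow. At time 0, before the diets, 5 females and 5 males were measured, all labelled as control animals. They are listed with the control chow of 5% beef tallow and no resveratrol. Each of the 22 arrays held the cells of 1 pig and the labels name 20 pigs, because female 8 and male 25 of the control group appear at both times; the age, the strain beyond mini pig and any array batch are not given in the sources used here. The study asked what the fat did to gene expression in these cells, what resveratrol added to it, and how the sexes differed at the start.

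Complement is a chain of plasma proteases and binding proteins that marks and lyses microbes, and host cells keep it in check with soluble and membrane-bound regulators. SERPING1 is C1 inhibitor, a serpin (a protease inhibitor that traps its target by changing shape) of the first complement proteases and of the contact system. C4BPB is the beta chain of C4b-binding protein, which helps to degrade C4b, and CD55 (decay-accelerating factor) is a cell-surface protein that takes apart the enzymes that cleave C3. CFD, factor D or adipsin, is no regulator in this sense but the activating protease that cleaves factor B in the alternative pathway. A2M, alpha-2-macroglobulin, cages proteases of many classes, and SERPINB2, plasminogen activator inhibitor 2, blocks urokinase and is known as an inducible gene of monocytes. The liver is the main source of several of these plasma proteins and fat tissue is a known source of CFD; monocytes and macrophages also make several of them.

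The mean log2 level of 12 measured monocyte markers lay between 9.68 and 10.54 over the arrays and that of 11 T cell markers between 9.69 and 10.67, so the defining markers of both cell types were present. The list means were 9.43 to 10.50 for B cell, 9.34 to 10.45 for NK cell, 5.20 to 6.64 for granulocyte, 6.88 to 9.93 for platelet and 7.93 to 11.04 for red cell markers. Of 11 hepatocyte genes on the array, 8, among them ALB, APOA1 and FGB, did not pass a log2 of 5 in any array, and the other 3 (AHSG, HP and TTR) averaged 5.85 to 6.21. Females 6 and 10 at time 0 had poly-A spike-in controls (bacterial RNAs added to the sample) at 9.03 and 9.06, against at most 7.78 in the other time 0 arrays, and control female 8 at 9 months had the lowest platelet, red cell and interferon levels. In bulk samples fewer cells of a type and less RNA per cell cannot be told apart.

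**Figure D1:**
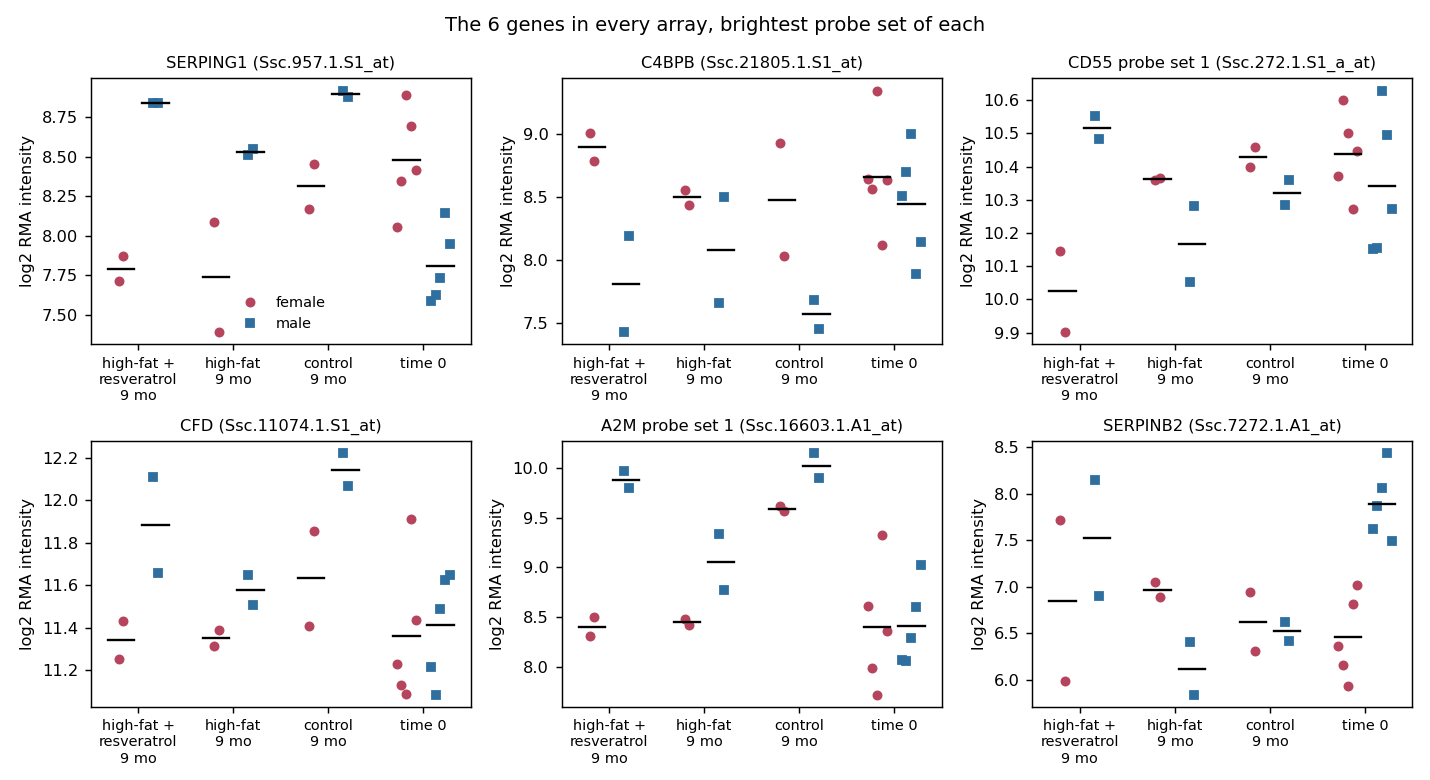
Log2 RMA intensity (y axis) of the brightest probe set of each of the 6 genes in the 22 arrays, by condition (x axis), with females as circles and males as squares; black bars are group means. SERPING1 females lie below the males in each diet at 9 months (means 7.95 and 8.76), while at time 0 females average 8.48 and males 7.81.

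SERPING1 was the member whose sex difference turned round between the times. At time 0 it read 8.05, 8.35, 8.89, 8.70 and 8.42 in females 6, 8, 10, 17 and 20, against 7.59, 7.62, 7.74, 8.14 and 7.95 in males 11, 12, 15, 24 and 25. Of the 5 females, 4 were above every male, and the groups overlapped only through female 6. The difference was 0.67 (SE 0.15) and passed the test (limma with Benjamini-Hochberg adjustment over 17240 probe sets, adjusted p = 0.0433). The call was close to the threshold of 0.05 and was lost without most single arrays. Leaving out female 8, 10 or 17 or male 11, 12, 15 or 25 gave differences of 0.57 to 0.71 with adjusted p of 0.0546 to 0.124, and the fit without females 6 and 10 together gave 0.68 (adjusted p = 0.0975). It was also lost after a further quantile normalization (adjusted p = 0.0503), with time 0 arrays alone (0.124) and with the actin (0.0571), spike-in (0.102) or cell covariate, so that 5 of 11 other settings kept it.

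At 9 months SERPING1 read 7.71 and 7.87 in resveratrol females, against 8.84 and 8.84 in resveratrol males. In high-fat pigs it read 8.09 and 7.39 in females, against 8.51 and 8.55 in males. In control pigs it read 8.45 and 8.17 in females, against 8.92 and 8.88 in males. All 6 females lay below all 6 males, a separation in this direction that 0.458% of the tested probe sets showed. Averaged over the diets SERPING1 was lower in females by a log2 difference of -0.81 (SE 0.14, adjusted p = 0.00384), and it stayed past the threshold whichever of the 12 arrays was left out.

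The change in the sex difference, 9 months minus time 0, was -1.48 (SE 0.21, adjusted p = 0.00254), the eighth smallest p of all tested probe sets, and it kept its call without each of the 22 arrays in turn. By the pig numbers of the control group, female 8 read 8.17 at 9 months and 8.35 at time 0, and male 25 read 8.88 at 9 months and 7.95 at time 0. Of the monocyte markers at 9 months, all 12 averaged lower in females, 5 past the test, where 6.01% of all tested probe sets were called. Their list means were 9.68 to 10.30 in females against 10.00 to 10.54 in males. With the monocyte list minus the T cell list as a covariate the SERPING1 difference was -0.29 at 9 months (adjusted p = 0.896), 0.52 at time 0 (adjusted p = 0.0715) and -0.81 for the change (adjusted p = 0.322).

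Interferon-stimulated genes followed the same order of the sexes in the pooled groups, though not within the control diet. All 19 measured ones averaged lower in females at 9 months, 2 past the test, and all 19 averaged higher in females at time 0, none past the test. Of all tested probe sets 6.01% were called at 9 months and 1.07% at time 0. Their list means ran from 7.69 to 9.08 in females against 8.00 to 9.54 in males at 9 months, and from 8.77 to 9.70 in females against 8.10 to 9.15 in males at time 0. By diet the list averaged 7.94 in females against 9.20 in males with resveratrol and 7.88 in females against 8.97 in males on high-fat chow, but 8.39 in females against 8.12 in males on control chow. The change of the sex difference passed the test for 11 of the 19, where 7.34% of all tested probe sets were called. SERPING1 is a known interferon-induced gene, and the part of interferon in its sex difference was not tested.

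**Figure D2:**
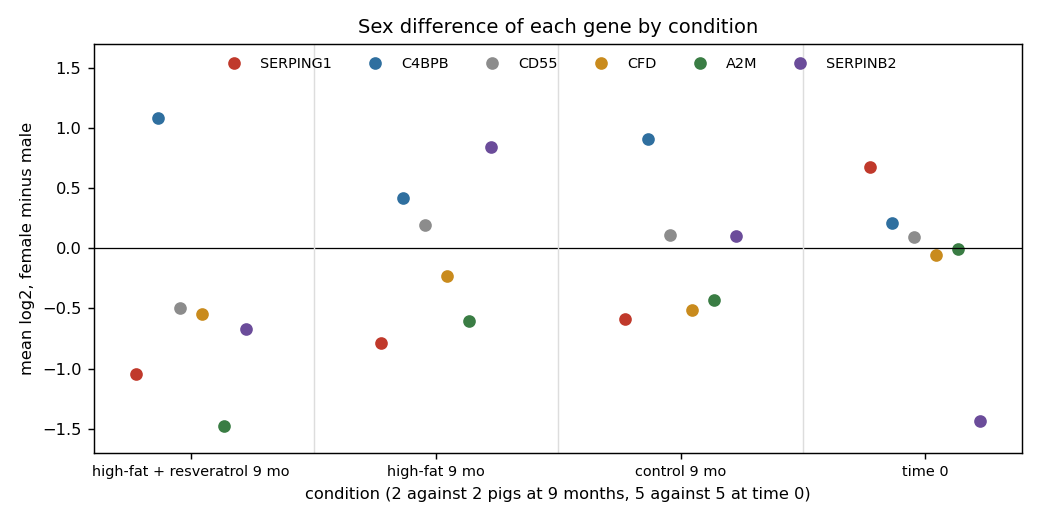
Mean log2 difference, female minus male (y axis), of the brightest probe set of each gene in the 4 conditions (x axis), 1 point per gene. SERPING1 lies at -1.05, -0.79 and -0.59 in the resveratrol, high-fat and control groups at 9 months and at 0.67 at time 0; SERPINB2 lies at -1.44 at time 0.

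Across the 22 arrays the genes most like SERPING1 were GP91-PHOX (the heavy chain of the phagocyte oxidase, r = 0.908), LOC100522887 (r = 0.898) and C1R (r = 0.882). After both genes were centred on the 8 group means they were SLA-DOA (r = 0.882), IRF8 (r = 0.856) and SLA-DQB1 (r = 0.847), which are MHC class II chains and an interferon regulatory factor of myeloid and B cells. C1R encodes the protease of the first complement complex that C1 inhibitor blocks. At 9 months it averaged 7.56 in females against 8.16 in males, and its own change in the sex difference was -1.05 (SE 0.20, adjusted p = 0.00735). These correlations are descriptions over 22 arrays that share cell make-up and processing.

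**Figure D3:**
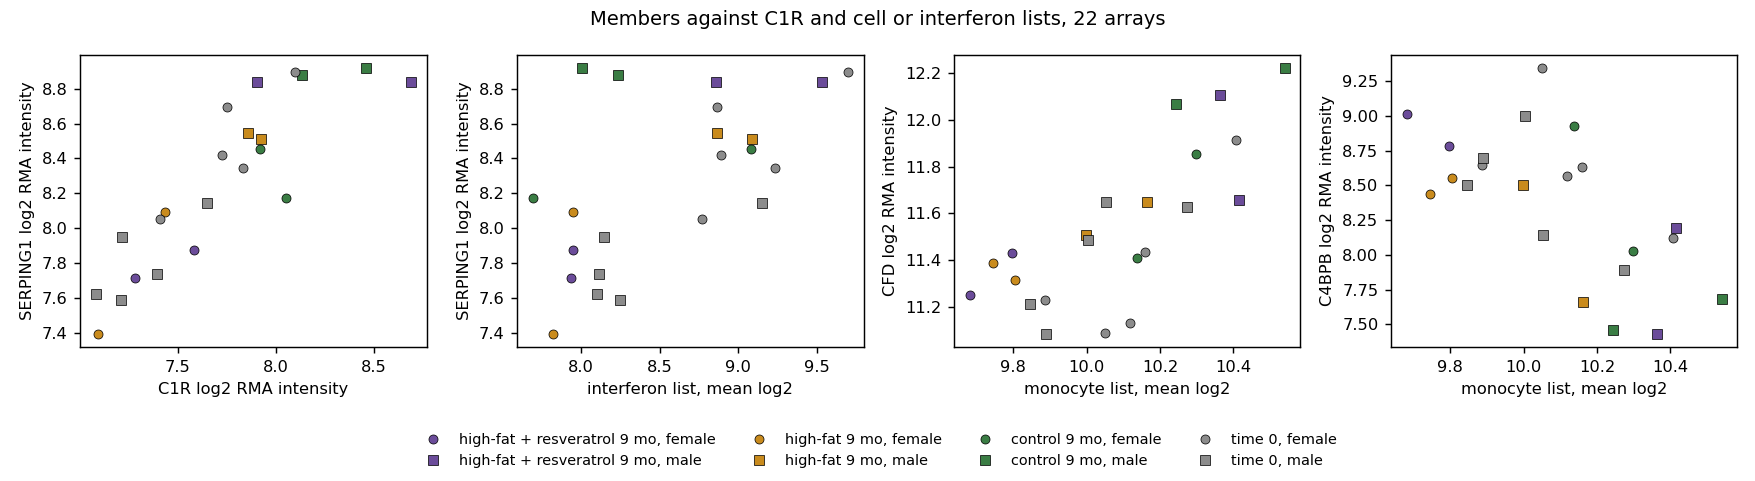
Each point is 1 of the 22 arrays (circles female, squares male, colour by condition). The panels plot, in log2 RMA intensity, SERPING1 against C1R and against the mean of the interferon list, and CFD and C4BPB against the mean of the monocyte list; SERPING1 and C1R correlate at 0.882, CFD and the monocyte list at 0.766, and C4BPB and the monocyte list at -0.647.

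SERPING1 showed no diet effect past the test. High-fat pigs averaged 8.14 against 8.61 in control pigs (log2 difference -0.47, 95% interval -1.13 to 0.19, adjusted p = 0.72), and resveratrol pigs 8.32 against 8.14 in high-fat pigs (0.18, interval -0.48 to 0.84, adjusted p = 0.955). Control pigs at 9 months averaged 8.61 against 8.15 at time 0 (0.46, adjusted p = 0.184). The model for these contrasts gave the sexes 1 common difference, which SERPING1 did not have; with a mean for each of the 8 groups the same time difference passed the test (adjusted p = 0.016) and the high-fat difference did not (-0.47, adjusted p = 0.273). With the monocyte minus T cell covariate both turned round, to -0.35 for the time (adjusted p = 0.177) and 0.10 for high-fat chow (adjusted p = 0.86).

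C4BPB ran opposite to SERPING1 at 9 months. It read 9.01 and 8.79 in resveratrol females, against 7.43 and 8.19 in resveratrol males. In high-fat pigs it read 8.55 and 8.44 in females, against 7.66 and 8.50 in males. In control pigs it read 8.03 and 8.93 in females, against 7.69 and 7.46 in males. The female mean was higher in each diet. Within the high-fat diet the sexes overlapped, with male 26 (8.50) above female 30 (8.44). Across diets high-fat male 26 and resveratrol male 5 lay above control female 18. The mean difference was 0.80 (SE 0.23, adjusted p = 0.0433).

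This C4BPB call was lost when female 8, 21, 22, 27 or 30 or male 4, 23 or 25 was left out (0.65 to 0.84, adjusted p of 0.0754 to 0.159). With the monocyte minus T cell covariate the difference was 0.26 (adjusted p = 0.981). It was also lost with no filter (adjusted p = 0.0517), with 9 month arrays alone (0.0578) and with the actin (0.0931) or spike-in covariate (0.0552), so that 5 of 10 other settings kept it. At time 0 C4BPB did not separate the sexes, with 8.64, 8.57, 9.34, 8.12 and 8.63 in females against 8.50, 8.70, 9.00, 7.89 and 8.14 in males (0.21, SE 0.25, adjusted p = 0.726). The change between the times was 0.59 (SE 0.34, adjusted p = 0.308), so the sex difference of C4BPB was not shown to differ between the times.

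Over the 22 arrays C4BPB was low where CFD and the monocyte list were high (r = -0.835 and -0.647). Its nearest genes were CD40 (a B cell and antigen-presenting cell receptor, r = 0.863), TBC1D7 (r = 0.853) and PNMA1 (r = 0.819), and after centring NDUFAF2 (r = 0.853), HMGN4 (r = 0.848) and LOC100627879 (r = 0.836). Diet left it without a call: 8.29 in high-fat against 8.02 in control pigs (0.26, adjusted p = 0.846) and 8.35 in resveratrol against 8.29 in high-fat pigs (0.07, adjusted p = 0.985). Control pigs at 9 months averaged 8.02 against 8.55 at time 0 (-0.53, SE 0.24, adjusted p = 0.0953). Without control female 8 at 9 months that time difference was -0.76 (adjusted p = 0.0312), and without female 17 at time 0 it was -0.61 (adjusted p = 0.0444). Array weights gave -0.67 (adjusted p = 0.0197). C4BPB lies close to CD55 in the pig genome, with 4 genes listed between them in RefSeq's annotation, C4BPA among them.

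CD55 gave 2 answers, depending on the probe set. Of its 5 probe sets the brightest, probe set 1, stayed within 9.90 to 10.63 over all arrays. It averaged 10.37 in control pigs at 9 months and 10.39 at time 0 (-0.01, 95% interval -0.25 to 0.22, adjusted p = 0.936). Probe sets 2, 3 and 4 fell between the times, and probe set 5 was lower too but near background. Probe set 3 read 4.84 and 5.15 in females and 4.71 and 5.39 in males on control chow at 9 months, against 7.54, 6.77, 7.12, 7.18 and 6.66 in females and 5.97, 6.17, 6.65, 6.89 and 5.81 in males at time 0. The times did not overlap, as in 15.2% of all tested probe sets, and the difference was -1.65 (SE 0.21, adjusted p = 8.14e-06). Since 2 of the 4 control arrays at 9 months lay under a log2 of 5, where probe sets are dim, the size of this fall is uncertain.

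Probe set 2 of CD55 read 8.73 and 9.28 in females and 8.21 and 8.69 in males on control chow at 9 months, and 9.44 to 9.88 in females and 9.19 to 9.90 in males at time 0. Its mean was 8.73 at 9 months against 9.58 at time 0 (-0.85, SE 0.18, adjusted p = 0.00107). Probe sets 1 and 2 are annotated to the same RefSeq transcript, so they disagreed within 1 record. Probe set 5 read 4.20 and 4.28 in females and 4.17 and 4.99 in males at 9 months, with a mean of 4.41, against a mean of 5.29 at time 0. It was above a log2 of 5 in 7 arrays, all of them at time 0, so it entered the test through the group where it was high and its difference is given without a test. Probe set 4 averaged 5.44 at 9 months against 6.08 at time 0 (-0.64, SE 0.22, adjusted p = 0.0277); that call was lost without control female 18 (-0.46, adjusted p = 0.142) or control male 16 (-0.60, adjusted p = 0.0769), and under array weights (-0.47, adjusted p = 0.0643). Of the pigs measured at both times, female 8 was lower at 9 months in probe sets 2, 3 and 4 (-0.34, -1.62 and -0.12). Male 25 was lower in probe sets 2 and 3 (-0.81 and -0.42) and higher in probe set 4 (0.26). The differences in probe set 5, subject to the limit above, were -1.19 in female 8 and 0.11 in male 25. Probe sets 2 to 5 correlated with each other at 0.71 to 0.917 over the arrays, and with probe set 1 at 0.302 to 0.485.

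**Figure D4:**
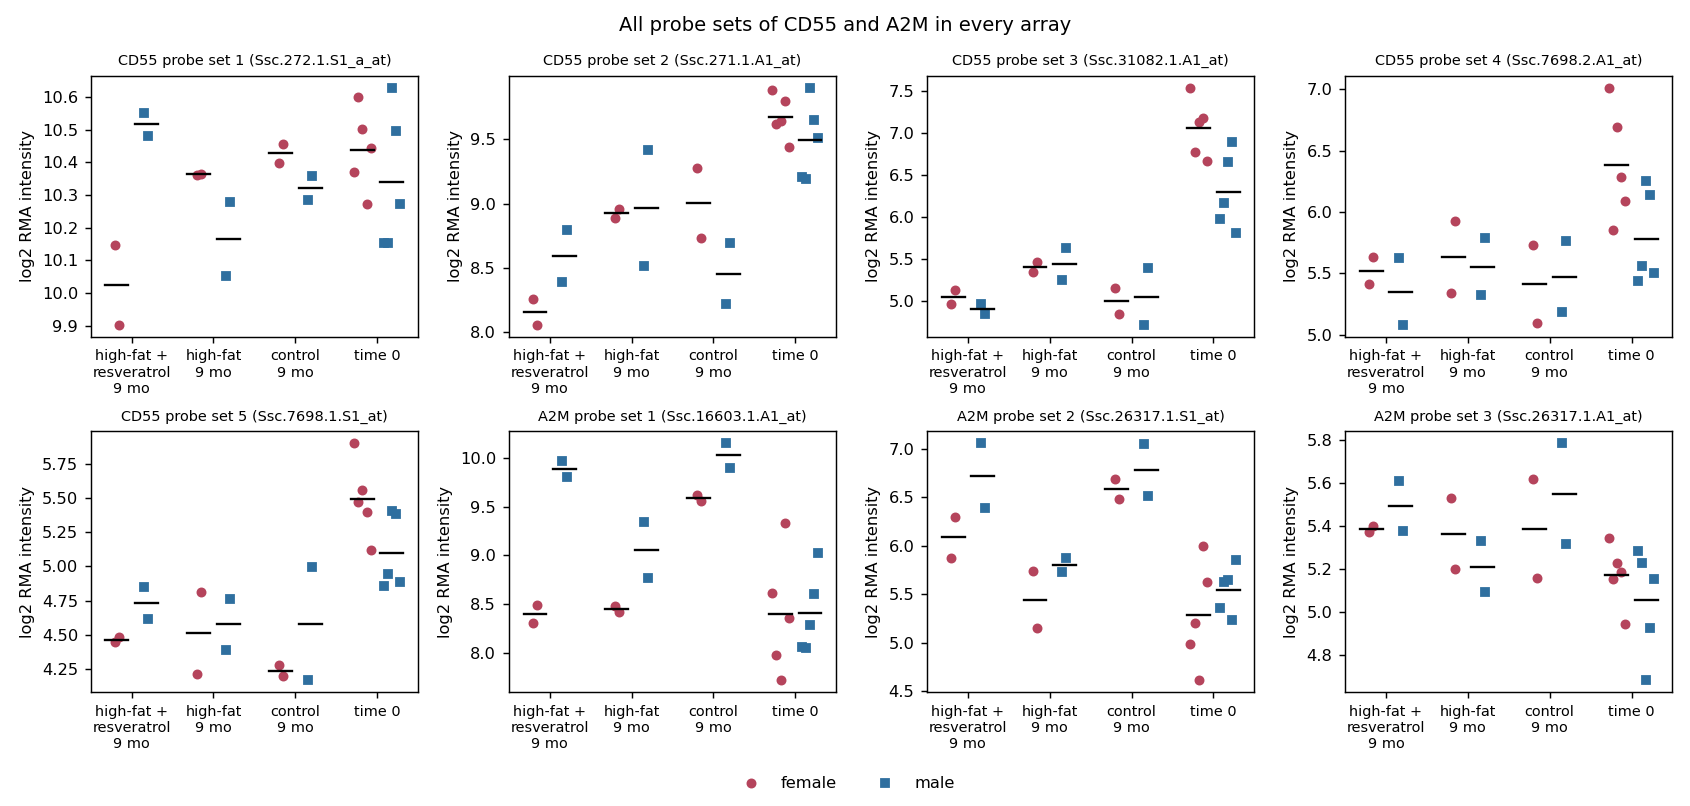
Log2 RMA intensity (y axis, own scale in each panel) of the 5 CD55 and 3 A2M probe sets in the 22 arrays by condition (x axis), females as circles and males as squares, bars as group means. CD55 probe set 1 stays within 9.90 to 10.63 while probe set 3 lies at 4.71 to 5.63 in all 9 month arrays and at 5.81 to 7.54 at time 0. In A2M probe sets 1 and 2 all 4 high-fat arrays lie below all 4 control arrays at 9 months, as in 2.97% of all tested probe sets.

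CD55 probe sets 2 to 5 also followed RNA measures within groups. Centred on the group means, they correlated with the poly-A spike-in level at 0.514 to 0.565 and with the 3' minus 5' difference of the actin controls, a measure of RNA degradation or short labelling, at 0.385 to 0.477. Poly-A spike-in levels were 8.28 to 10.30 in control pigs at 9 months against 7.49 to 9.06 at time 0, and the actin difference was 1.05 to 2.52 in control pigs at 9 months against 0.79 to 2.45 at time 0. The fit with either measure as a covariate kept the calls of probe sets 2, 3 and 4. Age, time on chow and any difference in handling between the 2 times cannot be told apart.

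Sex and diet gave no CD55 call. At time 0 probe set 3 averaged 7.05 in females against 6.30 in males (0.76, SE 0.20, adjusted p = 0.0745). It passed the test without female 20 (0.86, adjusted p = 0.0429) or male 24 (0.91, adjusted p = 0.0357). At 9 months the same probe set averaged 5.14 in females and 5.13 in males, and the change in its sex difference was -0.74 (SE 0.27, adjusted p = 0.106). That change passed the test without male 24 (-0.89, adjusted p = 0.0402). In resveratrol pigs probe set 3 read 4.95 and 5.12 in females and 4.96 and 4.84 in males, against 5.34 and 5.46 in females and 5.25 and 5.63 in males on high-fat chow. All 4 resveratrol arrays lay below all 4 high-fat arrays (-0.45, SE 0.25, adjusted p = 0.802). Counting both directions, 3.81% of all tested probe sets did not overlap in this comparison. The resveratrol readings of 4.95, 4.96 and 4.84 lay under a log2 of 5, where probe sets are dim. Probe set 2 averaged 8.37 in resveratrol against 8.95 in high-fat pigs (-0.57, SE 0.21, adjusted p = 0.728).

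CD55 probe set 1 was lower with resveratrol in both females and higher in both males than in high-fat pigs of the same sex. It read 10.15 and 9.90 in resveratrol females against 10.36 and 10.37 in high-fat females, and 10.55 and 10.48 in resveratrol males against 10.05 and 10.28 in high-fat males. The resveratrol effect in females minus that in males was -0.69 (SE 0.22), which did not pass the test (adjusted p = 0.837). The genes most like CD55 probe set 1 had r of 0.695 (CYSLTR1), 0.643 (SLC33A1) and 0.639 (ATP6V1A), and after centring 0.763 (VIPAS39), 0.761 (KLHL20) and 0.737 (RAB3GAP1).

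CFD rose between the times. On control chow at 9 months it read 11.86 and 11.41 in females and 12.22 and 12.07 in males. At time 0 it read 11.23, 11.13, 11.09, 11.91 and 11.44 in females and 11.21, 11.08, 11.49, 11.63 and 11.65 in males. The difference was 0.50 (SE 0.15, adjusted p = 0.0127), with both control females inside the time 0 range and both control males above it. Without control male 16 it was 0.43 (adjusted p = 0.0591), and with the monocyte minus T cell covariate 0.19 (adjusted p = 0.391).

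On high-fat chow CFD read 11.31 and 11.39 in females and 11.65 and 11.51 in males, and with resveratrol 11.25 and 11.43 in females and 12.11 and 11.66 in males. High-fat pigs averaged 11.46 against 11.89 in control pigs (-0.42, 95% interval -0.80 to -0.05, adjusted p = 0.473), and resveratrol pigs 11.61 against 11.46 in high-fat pigs (0.15, interval -0.22 to 0.52, adjusted p = 0.933). Over the 3 diets females averaged 11.44 against 11.87 in males (-0.43, SE 0.14, adjusted p = 0.0773), and at time 0 11.36 against 11.41 (-0.05, adjusted p = 0.907). CD63, a membrane protein of lysosomes and platelet granules, tracked CFD closely over all arrays (r = 0.966) and after centring (r = 0.964). TIMP2 (r = 0.919) and CFP, properdin, which stabilizes the enzyme that CFD helps to form (r = 0.91), came next; after centring MFSD7 (r = 0.923) and TYROBP, a myeloid signalling adaptor (r = 0.896), did.

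All 3 probe sets of A2M rose between the times, and 2 of them lay lower in every high-fat pig than in every control pig without passing the test. Such a separation in this direction was seen in 2.97% of all tested probe sets. Probe set 1 read 9.56 and 9.62 in females and 10.15 and 9.90 in males on control chow at 9 months. At time 0 it read 8.62, 7.99, 7.72, 9.33 and 8.36 in females and 8.06, 8.05, 8.29, 8.60 and 9.02 in males. Every control array at 9 months lay above every time 0 array, and the difference was 1.40 (SE 0.26, adjusted p = 0.000406). Counting both directions, 15.2% of all tested probe sets did not overlap between the times. A2M in female 8 read 9.62 at 9 months and 7.99 at time 0, and in male 25 9.90 at 9 months and 9.02 at time 0. With the monocyte minus T cell covariate the time difference was 0.64 (adjusted p = 0.0282).

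A2M probe set 2 averaged 6.68 in control pigs at 9 months against 5.41 at time 0 (1.27, SE 0.20, adjusted p = 7.1e-05). Again the times did not overlap, as in 15.2% of all tested probe sets. Probe set 3 averaged 5.47 in control pigs at 9 months against 5.11 at time 0 (0.36, SE 0.12, adjusted p = 0.0268), and its call was lost without control female 8 (0.31, adjusted p = 0.0977) or control male 16 (0.24, adjusted p = 0.162). With the spike-in covariate it was 0.35 (adjusted p = 0.0901) and with the monocyte minus T cell covariate 0.28 (adjusted p = 0.174). Probe sets 2 and 3 are annotated to the same transcript record. The 3 correlated over the arrays at 0.848 (1 and 2) and 0.511 (1 and 3).

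On high-fat chow A2M probe set 1 read 8.48 and 8.42 in females and 9.34 and 8.77 in males, all below the 4 control arrays. A separation in this direction was seen in 2.97% of all tested probe sets. The difference was -1.05 (SE 0.32), which did not pass the test (adjusted p = 0.326). Probe set 2 read 5.74 and 5.15 in females and 5.73 and 5.87 in males on high-fat chow, against 6.48 and 6.69 in females and 7.05 and 6.51 in males on control chow. Its difference of -1.06 (SE 0.24, 95% interval -1.55 to -0.57) had the 13th smallest p of all tested probe sets, with an adjusted p of 0.218, and array weights gave -0.95 (adjusted p = 0.0412). The monocyte list mean was 9.74 to 10.16 in high-fat pigs against 10.14 to 10.54 in control pigs, and 10 of its 12 genes averaged lower. A2M probe set 1 followed the monocyte minus T cell level over the 22 arrays at r = 0.894. With that level as a covariate the high-fat difference was -0.52 for probe set 1 (adjusted p = 0.307) and -0.92 for probe set 2 (adjusted p = 0.215).

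With resveratrol A2M probe set 1 read 8.31 and 8.50 in females and 9.97 and 9.80 in males. Both males lay above the high-fat males, and the females lay on either side of the high-fat females. The pooled difference from high-fat chow was 0.39 (SE 0.32, adjusted p = 0.875), and the resveratrol effect in females minus that in males was -0.88 (SE 0.53, adjusted p = 0.845). Probe set 2 read 5.87 and 6.30 in females and 7.06 and 6.38 in males with resveratrol. Its lowest resveratrol array was above the highest high-fat array by less than the rounding, and the difference was 0.78 (SE 0.24, adjusted p = 0.728). Counting both directions, 3.81% of all tested probe sets did not overlap in this comparison. The high-fat and resveratrol comparisons share the high-fat arrays, so their values are not independent.

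Over the 3 diets A2M probe set 1 averaged 8.82 in females against 9.65 in males (-0.84, SE 0.22, adjusted p = 0.0317). That call was lost without any of 10 of the 12 arrays (all except control female 18 and high-fat male 26), with differences of -0.88 to -0.74 and adjusted p of 0.051 to 0.114. With the monocyte minus T cell covariate the difference was -0.05 (adjusted p = 0.994), and with the actin covariate it was -0.75 (adjusted p = 0.09). Probe set 2 gave -0.39 (adjusted p = 0.268) and probe set 3 -0.04 (adjusted p = 0.898). At time 0 A2M probe set 1 averaged 8.40 in females and 8.41 in males (-0.01, adjusted p = 0.996). Its nearest genes were KIAA0930 (r = 0.93), SCARB2 (r = 0.924) and VIM (r = 0.924), and after centring FGL2 (r = 0.897), LMNA (r = 0.893) and PLXDC2 (r = 0.891).

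SERPINB2 separated the sexes before the diets. At time 0 it read 6.37, 6.16, 5.93, 6.82 and 7.02 in females, against 7.62, 7.87, 8.07, 8.44 and 7.50 in males. No female reached the lowest male, a separation in this direction that 1.51% of tested probe sets showed. The difference was -1.44 (SE 0.31, adjusted p = 0.0345). Leaving out female 6, 8 or 10 or male 11, 12, 24 or 25 gave -1.54 to -1.30 with adjusted p of 0.0577 to 0.107, and without females 6 and 10 together it was -1.23 (adjusted p = 0.228). The call was also lost with array weights (adjusted p = 0.067) and with the actin (0.053), spike-in (0.0903) or cell covariate (0.0509), so that 6 of 11 other settings kept it. Of 17 immediate early genes, which dissociation and handling of cells can induce, 3 were lower in females at time 0 past the test, where 1.07% of all tested probe sets were called. The list means ran from 9.96 to 10.68 in females against 10.40 to 10.63 in males. The part of these genes in the result was not tested.

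At 9 months SERPINB2 no longer divided the sexes. It read 7.72 and 5.98 in resveratrol females, against 8.15 and 6.90 in resveratrol males. In high-fat pigs it read 7.05 and 6.89 in females, against 6.40 and 5.84 in males. In control pigs it read 6.31 and 6.94 in females, against 6.63 and 6.42 in males. The mean difference was 0.09 (95% interval -0.49 to 0.68, adjusted p = 0.897). The change in the sex difference was 1.53 (SE 0.41, adjusted p = 0.0325). That call was lost without female 8 or 10 or male 12 or 24 at time 0, female 8 or male 25 on control chow, female 27 or male 26 on high-fat chow, or female 21 or male 5 with resveratrol (1.24 to 1.54, adjusted p of 0.0504 to 0.0664). Without females 6 and 10 together it was 1.32 (adjusted p = 0.107), with array weights 1.46 (adjusted p = 0.0729), with the actin covariate 1.36 (adjusted p = 0.115) and with the cell covariate 1.74 (adjusted p = 0.373).

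SERPINB2 varied widely between pigs of 1 group, with female 21 and male 4 high among the resveratrol arrays. Resveratrol pigs averaged 7.19 against 6.55 in high-fat pigs (0.64, SE 0.45, adjusted p = 0.849), and high-fat pigs 6.55 against 6.57 in control pigs (-0.03, adjusted p = 0.993). Control pigs averaged 6.57 at 9 months against 7.18 at time 0 (-0.60, SE 0.38, adjusted p = 0.227). Over all arrays SERPINB2 was most like HPSE (heparanase, r = 0.742), FBXO32 (r = 0.697) and MTPN (r = 0.693). After centring IL1A (r = 0.829), IL1B (r = 0.802) and SON (r = 0.759) came first, the interleukin-1 genes being inflammatory cytokines of monocytes.

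**Figure D5:**
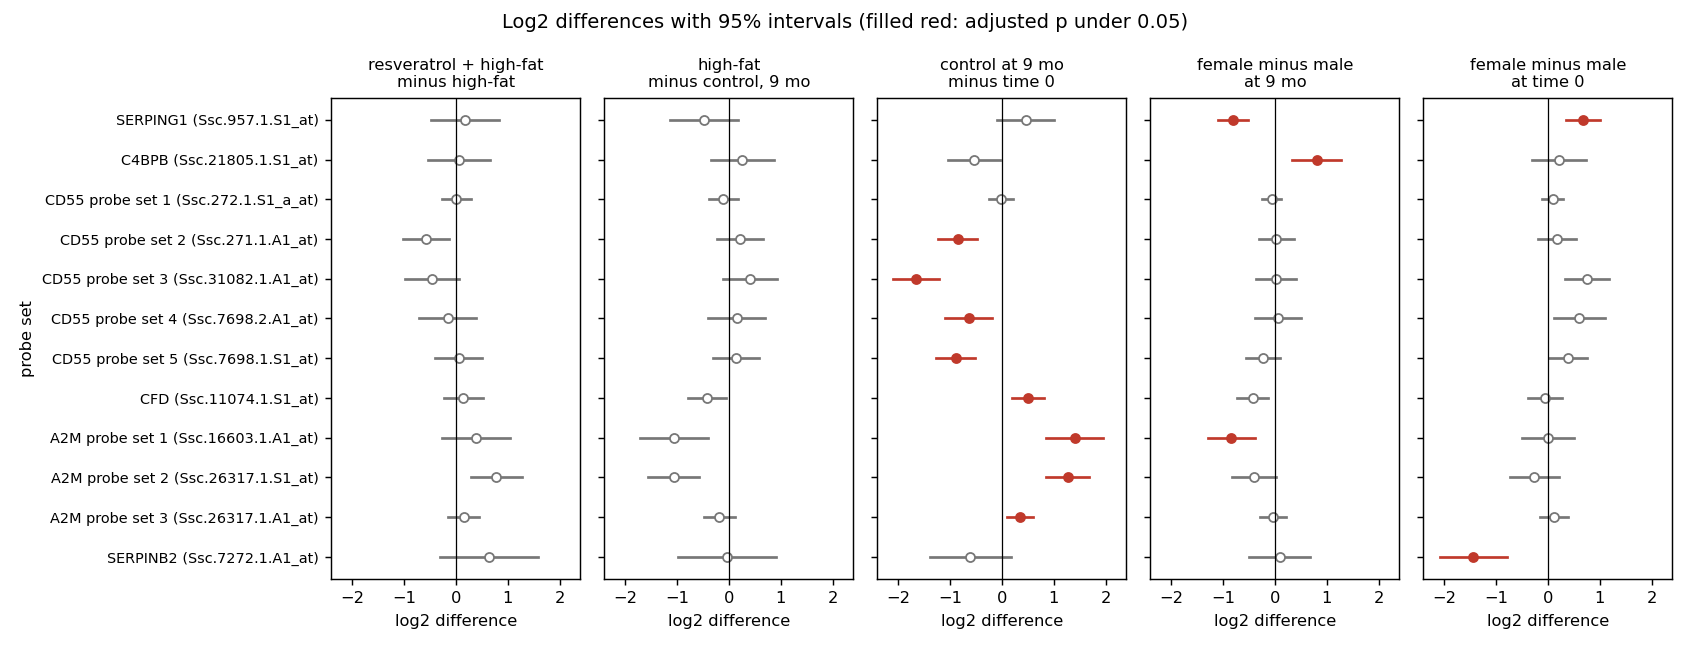
Log2 differences (x axis) of the 12 probe sets (rows) in 5 of the 9 comparisons, with 95% intervals; red points passed an adjusted p of 0.05. The control pigs at 9 months minus time 0 panel holds 8 red points, 4 on each side of 0. Its point for CD55 probe set 5, which entered the test through time 0 arrays alone, is not counted as a call. The panels for high-fat and for resveratrol hold no red point.

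Counted over the 12 probe sets, the calls stood as follows. Female minus male at time 0 gave 2 calls, SERPING1 higher and SERPINB2 lower, where 1.07% of all tested probe sets were called. Female minus male at 9 months gave 3 calls, C4BPB higher and SERPING1 and A2M lower, against a background of 6.01%. The change between those sex differences gave 2 calls against 7.34%. Control pigs at 9 months against time 0 gave 7 calls when CD55 probe set 5, which entered through time 0 arrays alone, is set aside, 4 of them higher (CFD and the 3 of A2M) and 3 lower (CD55). Of these, 3 had no overlap (15.2% of all tested probe sets did). The comparison called 35.0% of all tested probe sets, 15.8% higher and 19.1% lower.

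High-fat against control chow called 0 of the 12 and 0% of all probe sets; by limma 3 of the 12 had an unadjusted p under 0.05, where 9.06% of all did. A2M probe sets 1 and 2 were the 2 of 12 whose high-fat arrays lay wholly below the controls, where 2.97% of all did. Resveratrol against high-fat chow called 0 of the 12 and 0% of all, 2 had an unadjusted p under 0.05 (6.63% of all), and 2 did not overlap, 1 in each direction (3.81% of all). Resveratrol against control chow called 0 of the 12 and 0% of all, with 1 at an unadjusted p under 0.05 (3.85% of all). The tests of a diet effect that differed by sex called 0 of the 12 for fat (0.00580% of all; by limma 0 at an unadjusted p under 0.05, where 11.7% of all were) and 0 for resveratrol (0.0116% of all; 2 at an unadjusted p under 0.05, where 5.85% of all were).

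Of the wider complement and protease lists, 13 complement components, 5 receptors and 4 other regulators were measured above the filter. In control pigs at 9 months against time 0, 4 components rose: C1R (0.60, adjusted p = 0.0323), C2 (0.70, adjusted p = 0.043), C3, the central component (1.02, adjusted p = 0.000151), and CFP (0.74, adjusted p = 0.00503). That is 4 of 13 higher and 0 lower, beside 15.8% higher and 19.1% lower of all tested probe sets, and the counts below for the same comparison stand beside the same shares. Of the 13, 11 averaged higher, with a median difference of 0.20 beside -0.01 over all tested probe sets. The receptor VSIG4, a macrophage receptor for C3 fragments (0.56, adjusted p = 0.0032), and the membrane regulator CD46 (0.22, adjusted p = 0.0274) were the only calls of their lists.

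Female minus male at 9 months called 2 components lower, C1R (-0.60, adjusted p = 0.017) and FCN1, the ficolin of monocytes and granulocytes that starts the lectin pathway (-0.75, adjusted p = 0.0158). It called the receptor CD93 higher (0.35, adjusted p = 0.0427) and 0 of the 4 regulators, beside 6.01% of all tested probe sets. The change in the sex difference was called for C1R, for C2 (-1.17, adjusted p = 0.0193), for FCN1 (-0.88, adjusted p = 0.0394) and for CD93 (0.53, adjusted p = 0.0343). That comparison called 7.34% of all tested probe sets. At time 0 none of the 22 was called; C1R averaged 7.76 in females against 7.31 in males (0.45, adjusted p = 0.142).

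Among 6 other serpins, SERPINB1, an inhibitor of neutrophil proteases, rose between the times (0.32, adjusted p = 0.0124) and SERPINI1, neuroserpin, fell (-1.25, adjusted p = 1.69e-05). Of 14 other protease inhibitors CSTB (0.38, adjusted p = 0.00583), TIMP1 (0.67, adjusted p = 0.0118) and TIMP2 (0.63, adjusted p = 0.00388), a cystatin and inhibitors of metalloproteases, rose. Of 7 genes of the plasminogen, contact and tissue factor systems PLAU, the urokinase that SERPINB2 blocks (1.40, adjusted p = 1.54e-05), and THBD, thrombomodulin (1.54, adjusted p = 0.00748), rose and F12 fell (-1.05, adjusted p = 0.0018). By sex at 9 months CSTB (-0.30, adjusted p = 0.0166), TFPI (-0.73, adjusted p = 0.0398) and ANXA2 (-0.32, adjusted p = 0.0166) were lower in females. The sex difference changed for CSTB (-0.48, adjusted p = 0.0103) and ANXA2 (-0.52, adjusted p = 0.0102). Of all tested probe sets 6.01% were called by sex at 9 months and 7.34% for the change.

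The 3 diet comparisons, both tests of a diet effect that differed by sex and the sex comparison at time 0 called none of the 49 genes of these 6 lists. For high-fat minus control chow the 2 smallest p of each list belonged to CFP (-0.78, adjusted p = 0.326) and FCN1 (-0.68) among components, and to ITGB2 (-0.37) and VSIG4 (-0.36) among receptors. Among regulators they belonged to CD46 (-0.16) and CD59 (0.31), and among serpins to SERPINI1 (0.66) and SERPINB1 (-0.34). CST3 (-0.27) and TIMP2 (-0.57) came first among other inhibitors, and S100A10 (-0.17) and PLAU (-0.30) in the plasminogen list. CFP, the properdin that tracked CFD, read 9.04 and 8.93 in females and 9.45 and 9.04 in males on high-fat chow, against 10.11 and 9.33 in females and 10.32 and 9.82 in males on control chow. Of the 13 components 10 averaged lower on high-fat chow, with a median of -0.10 beside a median near 0 over all tested probe sets.

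For resveratrol minus high-fat chow the 2 smallest p of each list belonged to C3 (-0.44) and CFP (0.34), to ITGAM, a subunit of complement receptor 3 (0.62, adjusted p = 0.728), and ITGB2 (0.21), and to CD46 (0.21) and CD59 (-0.42). Among serpins, other inhibitors and plasminogen genes they belonged to SERPINB1 (0.22) and SERPINA1 (-0.12), to TIMP3 (0.60) and TFPI (0.47), and to F12 (0.32) and PLAU (0.25). Of the 13 components 7 averaged higher and 6 lower with resveratrol.

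For female minus male at time 0 they belonged to C1R and C2 (0.54), to CD93 (-0.18) and CR1 (-0.30), and to CD59 (-0.41) and CLU (-0.27). Among serpins, other inhibitors and plasminogen genes they belonged to SERPINI1 (0.27) and SERPINA1 (-0.10), to TIMP1 (-0.57) and CSTB (0.18), and to ANXA2 (0.20) and F12 (0.53). All 4 regulators averaged lower in females at time 0 and at 9 months, none past the test.

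The marker lists shifted between the times as well. In control pigs at 9 months against time 0, 3 of 12 monocyte markers rose (CD163, CTSB and MARCO), while 7 of 11 T cell, 2 of 3 B cell, 2 of 4 NK cell and 4 of 4 red cell markers fell, beside 15.8% of all tested probe sets higher and 19.1% lower. Of the 12 monocyte markers 9 averaged higher and 3 lower, called or not. Monocyte list means were 10.14 to 10.54 in control pigs at 9 months against 9.85 to 10.41 at time 0, and T cell list means 9.91 to 10.10 against 10.26 to 10.67. Of the 17 immediate early genes 9 rose between the times, beside the same 15.8% of all tested probe sets. By sex at 9 months 2 of 6 granulocyte, 3 of 4 red cell and 1 of 6 platelet markers were lower in females, beside 6.01% of all tested probe sets called. Past the test in the other direction were 1 of 11 T cell and 1 of 3 B cell markers. Called or not, 10 T cell markers averaged higher in females and 1 lower, while 1 B cell marker averaged higher and 2 lower. None of the hepatocyte markers passed the test in these comparisons. With the monocyte minus T cell covariate CD55 probe sets 2, 3 and 4 and A2M probe sets 1 and 2 kept their calls.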

How the data were processed

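The deposited table holds RMA intensities on a linear scale, made by the authors with GCOS, RMA and Affymetrix Expression Console 1.1, per the submitters' processing notes; per the labels' protocols, 4 µg of RNA was labelled with biotin for 1 array each. Values were floored at 1, log2-transformed and stripped of 124 control probe sets; the 17240 of 23999 probe sets (71.8%) above a log2 of 5 in at least 2 of 22 arrays were tested with limma 3.58.1 in R 4.3.3 (moderated, two-sided, Benjamini-Hochberg, threshold 0.05). Diet and time contrasts used condition plus sex over all arrays, and sex and interaction contrasts 8 group means. Arrays give no read depth; their number limits the precision. The p-values rest on the spread of arrays around these models. For diet and time contrasts that spread also holds any sex difference that varied between conditions. Arrays of the pigs measured at both times were treated as independent.

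Genes were named from GEO's platform annotation (10069 probe sets with 1 symbol, 198 with several, 13732 with none); all 12 member probe sets matched RefSeq's pig genes of assembly Sscrofa11.1 by gene ID. No sequence is shown. The members, the 6 pathway lists and the marker lists were chosen with earlier results of these data known. Named genes were all members, the 3 most alike by Pearson's r (brightest probe set, over all arrays and after centring on group means), list genes past the threshold and, for high-fat chow, resveratrol and sex at time 0, the 2 smallest p of each list; marker genes and others were named after their values were seen. Probe sets of a gene are numbered by mean level. The 95% intervals are limma's. Tests of the code on simulated data with independent noise returned the size of known changes for female minus male at time 0 and for high-fat chow. They do not show how often real changes of that size would be called.

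Pigs 8 and 25 appear at both times; the correlations of their deviations from the group means were -0.0564 and 0.199, so pig number was used only as a replicate block in an alternative. Alternatives were another normalization, filters, variance model, array weights, 3 covariates, arrays of the compared times alone, and leaving out arrays.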

Additional observations from a re-analysis of the deposited data

Results flagged for a closer look

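Among 72 groups of 4 to 10 arrays tested for an array far from the rest, 3 held one, and chance gives about 1 in 20. C4BPB in high-fat male 23 read 7.66, with the nearest high-fat array at 8.44 (gap over range 0.873). CD55 probe set 5 in control male 25 at 9 months read 4.99, with the nearest control array at 4.28 (0.865). A2M probe set 3 in resveratrol male 4 read 5.61, with the nearest resveratrol array at 5.40 (0.886).

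The sex difference differed between 9 months and time 0, by a test of that difference, for SERPING1 (-1.48, adjusted p = 0.00254) and for SERPINB2 (1.53, adjusted p = 0.0325). CD55 probe set 1 was lower with resveratrol in both females and higher in both males than in the high-fat pigs of the same sex; the difference of the effects was -0.69 and did not pass the test (adjusted p = 0.837).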

How the results depend on the processing

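Over 2298 recomputed values of single member probe sets, none of those called changed sign, 75 lost their call and 9 gained one; among values not called, 135 changed sign. The numbers of calls moved as follows, with 17240 probe sets tested in the reported fits. Female minus male at time 0 called 184 probe sets, 2 of them members. It called 43 in all and 1 member with time 0 arrays alone, 1 member after a further quantile normalization or with array weights, and 0 members with the actin, spike-in or cell covariate. The spike-in covariate left 56 calls in all, the cell covariate (monocyte minus T cell list) 107, and the fit without females 6 and 10 left 28 with 0 members. Leaving out each array in turn gave 38 to 395 in all and 0 to 3 members.

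High-fat minus control chow called 0, against 18 with 8 group means, 1 with only the arrays of the compared times, 68 with array weights (1 a member, A2M probe set 2), 2 with the actin covariate, and 0 to 18 without each array in turn (18 without control female 8). Resveratrol minus high-fat chow called 0, against 1 with 8 group means; resveratrol minus control chow called 0, against 1 with 8 group means and 1 with only the arrays of the compared time. Control chow at 9 months minus time 0 called 6026 and 8 members, and 4867 to 6087 and 5 to 9 without each array in turn (5 without control male 16). These member counts include CD55 probe set 5, which entered the test through time 0 arrays alone. Female minus male at 9 months called 1036 and 3 members, against 602 and 1 with the actin covariate, 14 and 0 with the cell covariate, and 319 to 1441 and 1 to 3 without each array in turn.

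The change in the sex difference called 1265 and 2 members. It called 1 member with array weights, 523 and 1 with the actin covariate, 0 and 0 with the cell covariate, 816 and 1 without females 6 and 10, and 692 to 1714 and 1 to 3 without each array in turn. The high-fat effect by sex called 1, against 0 with the stricter filter (log2 above 6 in at least 4 arrays) and 1 to 154 without each array in turn. The resveratrol effect by sex called 2, against 0 with that filter, 1 with only the arrays of the compared time, 1 with the cell covariate and 1 to 54 without each array in turn. The causes were not tested. The replicate block by pig number changed 0 of the member calls. Since its estimated correlations within pigs were negative (-0.176 and -0.0181), that says little about the pairing. Fits on only the arrays of the compared times were not run for the change in the sex difference. With 2 pigs per sex and diet the precision of the diet contrasts is low, and CD55 probe set 5, above a log2 of 5 in 7 arrays, all at time 0, lies near background.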
